A study of Mus musculus with 15 samples.

Results

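Lungs of mice given silica were set against lungs of mice given none, 30 days on, over all libraries of the series that passed 1 condition. Libraries were selected on the measured level of Rag1, the recombinase of developing lymphocytes and so a sign of thymus tissue, which had to lie under 1 CPM (counts scaled to the library total). The condition kept 12 of the 15 libraries, all at 0.224 CPM or less, and left out DMSO 7, silica_DMSO 4 and silica_DMSO 6, whose lowest value was 2541 CPM. Silica was given in 5 of the 12: silica 1, 2 and 7 received a nasal suspension of the mineral, and silica_DMSO 2 and 5 received it with dimethyl sulfoxide (DMSO), a solvent, on the second day. No silica was given in the other 7: DMSO 1, 4 and 6 received the solvent alone and control 1, 2, 4 and 7 saline. All animals are labelled as C57BL/J mice. The labels state no dose, sex or age, and leave it unsaid whether the libraries come from separate animals, so p-values measure the spread between these libraries.

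Expected read counts, which apportion reads that match several genes, summed to between 17434649 and 20829960 per library. Lung genes were present in each of the 12: Sftpc, the surfactant protein of alveolar type 2 cells, held 13855 to 26898 CPM in silica lungs and 16579 to 39513 CPM in unexposed lungs. An axis of gene length crossed the groups. Genes over 3000 bases took 11.5%, 22.5%, 34.0%, 40.0% and 42.8% of counts in silica_DMSO 5, silica 7, silica 2, silica_DMSO 2 and silica 1, and 12.4% to 44.9% in unexposed lungs. The group means were 30.2% and 30.8%, in silica and unexposed lungs, and the first principal component (50.8% of the variance) put the 5 libraries at or under 24.2% on one side and the 7 at or over 34.0% on the other. Scgb1a1, the secretory protein of club cells, moved with it, holding between 8.83% and 14.2% of all counts in the first 5 libraries and between 0.927% and 5.31% in the others, and the origin of the axis was not tested. The fit therefore held 3 terms, silica, DMSO and this share, which was itself chosen after it was seen to part the libraries, and the share alone was called for 8969 of 17630 genes (50.9%).

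Inhaled crystalline silica is taken up by macrophages of the air spaces and cannot be digested. Particles damage the lysosome, which can set off the NLRP3 inflammasome and the release of interleukin 1, and the dying cells are replaced by monocytes drawn in by chemokines. Macrophages that load on debris and lipid express osteopontin, Gpnmb, cathepsin K and metalloelastase, and persistent inflammation leads to nodules of collagen. In whole lung, more cells of a type and more RNA per cell cannot be told apart.

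Genes that rose in silica lungs included 10 of 24 genes of lipid- and debris-handling macrophages, 5 of 18 CC and 3 of 15 CXC chemokines, 3 of 16 C-type lectins and 3 of 17 acute-phase and iron genes. Of 17630 genes tested, 80 (0.454%) were called at an adjusted p under 0.05 by edgeR's quasi-likelihood test with Benjamini-Hochberg adjustment over all genes. The direction was nearly uniform, with 79 genes higher (0.448%) and 1 lower (0.00567%). At an unadjusted p under 0.05 the split was 995 higher (5.64%) and 513 lower (2.91%). The 79 rose by a median of 1.96 on the log2 scale, with a range of 0.62 to 5.18. In 47 of the 80 genes the 5 silica libraries and the 7 unexposed ones did not overlap, and over all tested genes 110 (0.624%) lay wholly higher and 14 (0.0794%) wholly lower. Levels below are normalised CPM, scaled between libraries by the trimmed mean of M values (TMM), and errors of fold changes are standard errors (SE). The count of calls was 18 when the share of long genes was left out of the fit, 421 with DESeq2 and 0 with all 15 libraries. It was 263 without DMSO 4, 23 to 28 without control 2, 4 or 7 or DMSO 1 or 6, and 34, 35 and 50 without silica 2, control 1 or silica 1.

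**Figure D1:**
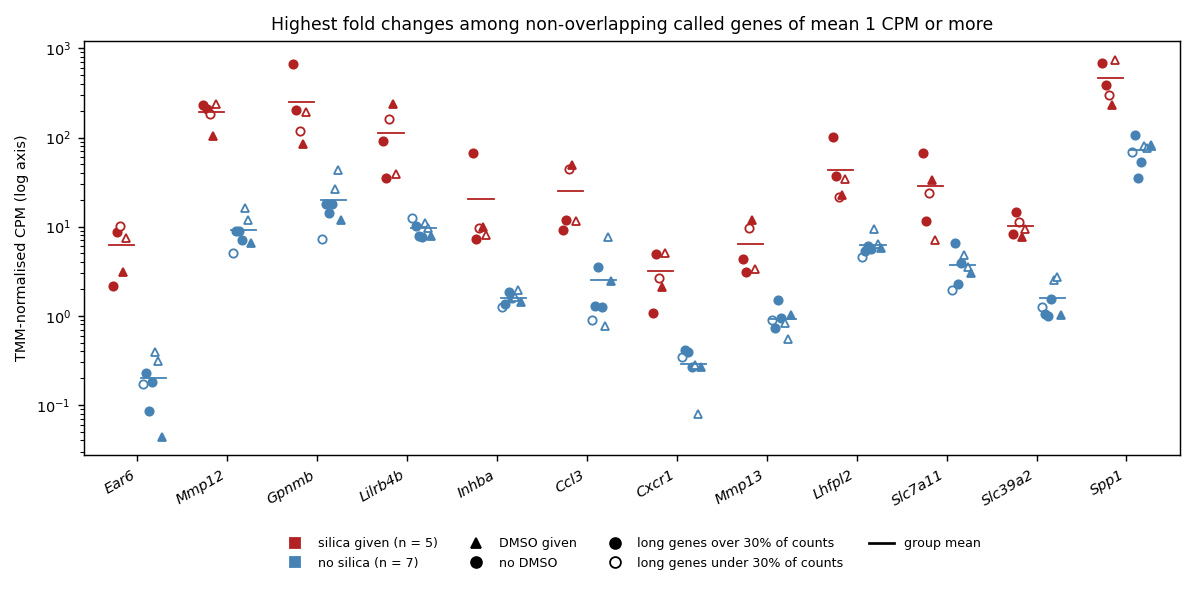
Normalised CPM (log axis) of the 12 called genes with the highest fold change among those with no overlap and a mean of at least 1 CPM, each point 1 library, with 5 silica libraries in red left of 7 unexposed ones in blue and a line at each group mean. Triangles mark DMSO, and open symbols libraries with under 30% of counts in long genes. Mmp12 lies at 105 to 239 in silica lungs and at 5.05 to 16.2 in unexposed lungs, and open and filled symbols of a group lie within each other's range for most genes.

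Gene lists were chosen with earlier results of these data known, so their counts and medians are a description. Macrophage genes of lipid and debris handling held the most calls. Of 24 such genes tested, 10 rose and 0 fell, and all 24 fold changes were positive, with a median of 1.12 on the log2 scale against -0.039 over all genes. Mmp12, the metalloelastase of macrophages, stood at 234, 211 and 186 in silica 1, 2 and 7 and at 105 and 239 in silica_DMSO 2 and 5, against 5.05 to 16.2 (median 8.896) in the 7 unexposed lungs. Its fold change was 4.40 ± 0.30 on the log2 scale (edgeR adjusted p = 9.20e-05), the smallest p of all genes. The lowest silica library, silica_DMSO 2, lay far above the highest unexposed one, DMSO 1. Spp1, which encodes the matrix cytokine osteopontin, had 685, 389 and 299 in silica 1, 2 and 7 and 231 and 748 in silica_DMSO 2 and 5, against 34.98 to 107 (median 77.1) without silica (2.70 ± 0.34, edgeR adjusted p = 0.00637). The groups were wholly apart for it as well.

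Gpnmb, a glycoprotein of phagosomes, was uneven within the silica lungs. It reached 668, 202 and 119 in silica 1, 2 and 7 and 84.6 and 194 in silica_DMSO 2 and 5, against 7.27 to 43.5 (median 17.9) in unexposed lungs (3.71 ± 0.62, edgeR adjusted p = 0.0304). Silica 1 was far above the other silica lungs, and the lowest silica lung was still above DMSO 4, the highest unexposed lung. Ctsk, the collagen-cleaving cathepsin K, measured 140.0, 252 and 297 in silica 1, 2 and 7 and 139 and 378 in silica_DMSO 2 and 5, against 20.9 to 139.9 (median 27.4) without silica (2.47 ± 0.25, edgeR adjusted p = 0.00176). Here 1 unexposed library, DMSO 4, lay at the level of the lowest silica lungs, while the other 6 were at 60.4 or below. Lhfpl2, a membrane protein of the tetraspan kind, gave 102, 36.6 and 21.6 and 22.6 and 33.97 in the same order, against 4.54 to 9.43 (median 5.71) (2.78 ± 0.37, edgeR adjusted p = 0.00847), with no overlap. Also called were Trem2, a lipid receptor of macrophages, at 2.27 ± 0.43, and Atp6v0d2, a subunit of the lysosomal proton pump, at 1.59 ± 0.30. The rest were Lgals3, which encodes galectin 3, at 1.48 ± 0.23, Cstb, an inhibitor of cathepsins, at 1.14 ± 0.22, and the fatty acid carrier Fabp5 at 1.10 ± 0.17. Of these, only Atp6v0d2 did not overlap between groups. Silica_DMSO 2 was the lowest silica lung for Trem2, Lgals3, Cstb and Fabp5, at 10.2, 151, 60.5 and 193. DMSO 4 lay above it, at 39.5, 517, 243 and 308. Apoe and Lpl, lipid genes of the same macrophages, had 0.66 (edgeR adjusted p = 0.767) and 0.44 (edgeR adjusted p = 0.852), and did not pass.

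Proteases of the matrix included 3 further called genes. Of 23 proteases and inhibitors tested, 4 rose and 0 fell, with a median of 0.45. Mmp13, an interstitial collagenase, had 4.38, 3.11 and 9.56 in silica 1, 2 and 7 and 11.9 and 3.36 in silica_DMSO 2 and 5, against 0.548 to 1.51 (median 0.909) in unexposed lungs (2.82 ± 0.37, edgeR adjusted p = 0.00807). No unexposed lung came near the lowest silica lung for it. Mmp19, another metalloproteinase, rose by 1.84 ± 0.26, and Plau, the urokinase that activates plasminogen, by 1.65 ± 0.26, with Plau at 18.8, 16.04 and 17.8 and 16.6 and 16.2 in silica lungs, the most even silica group of the 4 proteases, against 2.16 to 7.65 (median 6.27). Timp1, the inhibitor of metalloproteinases, had 1.11 ± 0.25 and was not called (edgeR adjusted p = 0.07805).

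Promoters of called genes were searched for motifs of inducible factors, and those of 2 proteases and 2 chemokines that hold one are shown. RefSeq promoters (GRCm38.p6, 250 bases before the start) matched 55 of the 79 genes that rose, with 64 promoters, and 12451 of the tested genes, with 15812. The AP-1 motif TGANTCA, on either strand, was in 8 of the 64 (12.5%) and in 5.003% of the 15812, and the NF-kB motif, which is the letters in capitals in the Cxcl1 sequence below with any base at the fifth place, in 3 (4.69%) and 0.386%. For the interferon-stimulated element the shares were 7.81% and 2.72%, for the MiT/TFE box TCANGTGA 6.25% and 3.28%, for the ETS core GGAAGT 21.9% and 22.4%, and for the C/EBP site TTGCGCAA 0% and 0.247%. The motifs were chosen after the fold changes were seen, and a match is a description of letters, not a site. Mmp12 (chr9:7347124-7347373, plus strand) and Mmp13 (chr9:7272264-7272513, plus strand) are shown with the AP-1 motif in capitals, which ends 37 and 28 bases before the start.
Mmp12: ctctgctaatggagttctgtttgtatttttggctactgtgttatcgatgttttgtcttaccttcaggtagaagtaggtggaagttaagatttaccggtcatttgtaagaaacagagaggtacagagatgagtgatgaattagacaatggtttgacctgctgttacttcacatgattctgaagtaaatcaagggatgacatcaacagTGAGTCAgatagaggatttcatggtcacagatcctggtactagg
Mmp13: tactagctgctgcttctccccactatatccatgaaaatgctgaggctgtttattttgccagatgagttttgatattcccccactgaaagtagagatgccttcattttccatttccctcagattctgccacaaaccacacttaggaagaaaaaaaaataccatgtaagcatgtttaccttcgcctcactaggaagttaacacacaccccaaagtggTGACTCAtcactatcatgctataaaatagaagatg

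Genes of alveolar macrophages moved unevenly. Of 23 tested, 7 rose and 0 fell, but the median was only 0.35. Positive fold changes were found in 16, and 9 were higher and 3 lower at an unadjusted p under 0.05 (background 5.64% and 2.91%). Ear6, an eosinophil-associated ribonuclease, had the highest fold change of the genes in the plot of top genes, with 2.17, 8.72 and 10.1 in silica 1, 2 and 7 and 3.12 and 7.39 in silica_DMSO 2 and 5, against 0.0442 to 0.388 (median 0.1798) in unexposed lungs (4.81 ± 0.40, edgeR adjusted p = 0.000416). Its family members Ear1 and Ear2, which share sequence with it and may exchange reads, stood at -0.97 (edgeR adjusted p = 0.07805) and -0.67 (edgeR adjusted p = 0.421) and did not pass. Marco, a scavenger receptor that binds particles, measured 24.7, 82.2 and 57.3 and 35.9 and 107 in the same order, against 7.87 to 24.5 (median 11.98) (2.02 ± 0.24, edgeR adjusted p = 0.00629). Its lowest silica library, silica 1, sat just above DMSO 4. Itgax, an integrin of alveolar macrophages, rose by 1.30 ± 0.23, and Csf2rb, the shared receptor chain for GM-CSF, by 1.67 ± 0.27, both with no overlap. Siglecf and Chil3, defining markers of resident alveolar macrophages, had -0.0098 (edgeR adjusted p = 0.996) and 0.17 (edgeR adjusted p = 0.924), and Pparg, their lineage factor, 0.21 (edgeR adjusted p = 0.849).

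Scavenger receptors other than Marco followed in part. Of 15 particle and scavenger receptors, 3 rose, with a median of 0.45. Olr1, a receptor for oxidised lipoprotein, measured 43.1, 23.1 and 13.1 and 15.1 and 26.1 in silica lungs, against 4.32 to 9.43 (median 6.34) (1.89 ± 0.31, edgeR adjusted p = 0.0228), and Msr1, the class A scavenger receptor, rose by 2.31 ± 0.43. Neither overlapped between groups. Of 22 genes of monocytes and interstitial macrophages 2 rose, and the median was 0.64. Positive fold changes were seen in 20, and 10 were higher and 0 lower at an unadjusted p under 0.05. The median was 0.52 in silica_DMSO over DMSO and 1.21 in silica over control, where 9 were called. The 2 that rose were Fcgr1, a receptor for immunoglobulin G, by 1.31 ± 0.24 and C3ar1, the receptor for complement fragment C3a, by 1.91 ± 0.31. Both overlapped through DMSO 4, at 18.2 for Fcgr1 and 18.7 for C3ar1. Fcgr1 had 14.3, 16.6 and 14.7 in silica 1, 2 and 7 and 16.3 and 33.5 in silica_DMSO 2 and 5. DMSO 4 thus lay above every silica lung but silica_DMSO 5 for it.

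Of 16 C-type lectin genes, many of them receptors for microbial or damage patterns, 3 rose and 13 were not called, 4 of them with negative fold changes, and the median was 0.65. Clec7a, which encodes the beta-glucan receptor dectin 1, had 324, 184 and 252 in silica 1, 2 and 7 and 98.2 and 675 in silica_DMSO 2 and 5, against 37.8 to 204 (median 46.1) without silica (2.09 ± 0.36, edgeR adjusted p = 0.0308). Clec4n, or dectin 2, gave 116, 75.8 and 109 and 39.4 and 357, against 7.903 to 118 (median 14.2) (2.42 ± 0.41, edgeR adjusted p = 0.0286). Silica_DMSO 2 was the lowest silica lung for both, and DMSO 1 and DMSO 4 were above it. Clec5a, a receptor of myeloid cells, rose by 2.07 ± 0.39 with no overlap. Lilrb4b, an inhibitory receptor of myeloid cells, had 91.3, 34.7 and 161 and 236 and 39.4, against 7.64 to 12.7 (median 9.63) (3.52 ± 0.44, edgeR adjusted p = 0.00637), and its near-copy Lilrb4a rose by 2.62 ± 0.40. Reads of these neighbours can be exchanged, so their separate levels are uncertain.

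The inflammasome and interleukin 1 list had 1 called gene of 18, and it was the antagonist. Of the 18, 16 had positive fold changes, with a median of 0.68, and 9 were higher and 0 lower at an unadjusted p under 0.05. Il1rn, which blocks the interleukin 1 receptor, had 66.7, 56.5 and 64.98 in silica 1, 2 and 7 and 51.5 and 30.2 in silica_DMSO 2 and 5, against 5.04 to 17.2 (median 8.06) without silica (2.66 ± 0.32, edgeR adjusted p = 0.00629). All 5 silica lungs lay above all unexposed lungs. Il1b, the cytokine itself, had 14.4, 70.02 and 58.9 and 66.7 and 41.6, against 8.69 to 51.5 (median 25.7), and was not called (1.19 ± 0.40, edgeR adjusted p = 0.326), while Il1a had 2.72 (edgeR adjusted p = 0.0578). Nlrp3, the sensor of the inflammasome, stood at 11.1, 9.52 and 23.4 and 37.04 and 0.4799, against 1.19 to 7.38 (median 3.096) (2.39 ± 0.59, edgeR adjusted p = 0.115). Silica_DMSO 5 was the lowest of all 12 libraries for it and the other silica lungs lay above every unexposed one. Tnf, the inflammatory cytokine, had 1.40 ± 0.47 (edgeR adjusted p = 0.322) and Il6 1.26 ± 0.72 (edgeR adjusted p = 0.721). No gene of the 24 of TNF and NF-kB feedback was called (14 at an unadjusted p under 0.05, median 0.55), and none of the 29 interferon-induced genes (13 at an unadjusted p under 0.05, median 0.59).

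CC chemokines had the highest median of the lists. Of 18 CC chemokines 5 rose, with a median of 1.32, and of 15 CXC chemokines 3 rose, with a median of 1.00. Ccl2, which recruits monocytes through CCR2, had 5.33, 10.6 and 13.2 in silica 1, 2 and 7 and 7.32 and 28.8 in silica_DMSO 2 and 5, against 0.546 to 7.52 (median 1.296) in unexposed lungs (2.73 ± 0.37, edgeR adjusted p = 0.00913). DMSO 4 at 7.52 was the only unexposed library above 1.66 and reached into the silica range. Ccl7, a related monocyte chemokine, showed the same layout, with 2.99, 6.57 and 15.6 and 5.701 and 43.4 in silica lungs, against 0.965 to 10.02 (median 1.21), the highest again in DMSO 4 (2.26 ± 0.36, edgeR adjusted p = 0.0216). Ccl3, a ligand of CCR1, measured 9.19, 11.7 and 44.2 and 48.8 and 11.7, against 0.776 to 7.596 (median 1.27) (3.40 ± 0.63, edgeR adjusted p = 0.0474), highest in silica 7 and silica_DMSO 2 and with no overlap. Ccl6, a chemokine of macrophages, rose by 1.99 ± 0.37 and Ccl22, a product of dendritic cells, by 1.05 ± 0.18, the second without overlap.

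Chemokines for neutrophils had wider spreads. Cxcl1 had 4.55, 6.82 and 21.3 in silica 1, 2 and 7 and 21.3 and 15.8 in silica_DMSO 2 and 5, against 0.795 to 6.81 (median 1.77) without silica (2.55 ± 0.43, edgeR adjusted p = 0.0273). Cxcl5 gave 2.99, 5.56 and 10.5 and 5.95 and 19.4, against 0.1295 to 9.95 (median 0.796) (2.82 ± 0.48, edgeR adjusted p = 0.0304). In both, DMSO 4 alone overlapped the silica lungs. Cxcl3, the third called, was named after its values were seen, at 10.8, 2.36 and 44.2 and 48.8 and 11.5, against 0.0568 to 9.95 (median 0.3596) (5.18 ± 0.95, edgeR adjusted p = 0.0496). Of 18 chemokine receptors 2 rose. Ccr1, the receptor for Ccl3 and Ccl6 among others, was even across silica lungs, at 34.9, 36.7 and 42.9 and 32.3 and 36.8, against 7.72 to 24.2 (median 8.802) (1.74 ± 0.23, edgeR adjusted p = 0.00807). Cxcr1, a receptor of neutrophils, was low in all libraries, at 1.08, 4.91 and 2.65 and 2.08 and 5.09, against 0.0783 to 0.4097 (median 0.277) (3.31 ± 0.45, edgeR adjusted p = 0.00871). It was the only one of 17 neutrophil genes called, where the median was 1.01, with 0.065 in silica_DMSO over DMSO and 1.71 in silica over control, the arm in which 4 were called. The promoters of Cxcl1 (chr5:90890995-90891244, plus strand) and Cxcl3 (chr5:90785851-90786100, plus strand) are shown because both hold the NF-kB motif, in capitals, which ends 61 and 63 bases before the start.
Cxcl1: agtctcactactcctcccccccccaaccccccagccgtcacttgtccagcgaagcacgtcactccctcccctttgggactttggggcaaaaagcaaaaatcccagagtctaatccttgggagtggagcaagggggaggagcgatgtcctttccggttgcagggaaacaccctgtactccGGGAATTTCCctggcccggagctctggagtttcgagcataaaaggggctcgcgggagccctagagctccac
Cxcl3: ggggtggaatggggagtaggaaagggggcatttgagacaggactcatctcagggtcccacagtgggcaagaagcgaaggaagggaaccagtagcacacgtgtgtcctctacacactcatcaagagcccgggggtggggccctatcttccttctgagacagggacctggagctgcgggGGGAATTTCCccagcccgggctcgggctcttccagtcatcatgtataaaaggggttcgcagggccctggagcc

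Of 17 acute-phase and iron genes 3 rose and 14 were not called. All 17 fold changes were positive, and the median was 1.08. Saa3, the serum amyloid A made by macrophages and epithelium, had 259, 136 and 325 in silica 1, 2 and 7 and 59.1 and 795 in silica_DMSO 2 and 5, against 3.36 to 193 (median 7.87) in unexposed lungs (4.36 ± 0.67, edgeR adjusted p = 0.0223). DMSO 4 at 193.2 was the one unexposed lung above 21.0. Itih4, an inter-alpha-trypsin inhibitor chain, did not overlap, at 325, 243 and 223 and 189.5 and 528, against 49.4 to 100.2 (median 67.3) (2.08 ± 0.22, edgeR adjusted p = 0.00207). Saa1 also rose, by 2.83 ± 0.47, at 4.03 normalised CPM or less in every library, but the groups overlapped. Silica 1 and silica_DMSO 2, at 0.217 and 0.125, lay below control 1 and DMSO 4, at 0.341 and 0.392. Reads of the Saa family may be exchanged.

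Several other lists held a single called gene, and the lysosomal list 3. Slc39a2, an importer of zinc, was the 1 called gene of 17 zinc transporters and metallothioneins, whose median was -0.028. It had 8.19, 14.7 and 11.3 in silica 1, 2 and 7 and 7.699 and 9.501 in silica_DMSO 2 and 5, against 0.993 to 2.74 (median 1.25) (2.76 ± 0.28, edgeR adjusted p = 0.00176), wholly apart. Slc7a11, the cystine carrier that feeds glutathione synthesis, was the 1 called of 20 Nrf2 targets (median -0.029), at 66.6, 11.7 and 24.1 and 33.4 and 7.102, against 1.93 to 6.56 (median 3.52) (2.76 ± 0.46, edgeR adjusted p = 0.0264). Slc26a4, the anion exchanger pendrin of airway epithelium, was the 1 called of 14 goblet cell and mucus genes (median 0.47), at 18.4, 12.03 and 13.6 and 9.57 and 18.4, against 1.64 to 5.49 (median 2.19) (2.49 ± 0.31, edgeR adjusted p = 0.00637). The groups did not overlap for Slc7a11 or Slc26a4. All 14 goblet cell and mucus genes had positive fold changes, and 3 were higher and 0 lower at an unadjusted p under 0.05. Inhba, the subunit of activin A, was the 1 called of 25 TGF-beta genes (median 0.11), at 67.1, 7.32 and 9.71 and 10.03 and 8.06, against 1.25 to 1.96 (median 1.57) (3.45 ± 0.53, edgeR adjusted p = 0.0186). Silica 1 was far above the next library, but the other 4 silica lungs were also above the highest unexposed lung. Gla, a lysosomal galactosidase, was called beside Ctsk and Atp6v0d2 among 30 lysosomal genes (median 0.62), with 1.01 ± 0.18. Of these 30, 28 had positive fold changes, and 20 were higher and 0 lower at an unadjusted p under 0.05.

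Of 26 cell cycle genes 3 rose and 0 fell. At an unadjusted p under 0.05 24 were higher (background 5.64%), all 26 fold changes were positive, and the median was 1.04, with 0.53 in silica_DMSO over DMSO and 1.42 in silica over control. Rrm2, the small subunit of ribonucleotide reductase, had 22.6, 14.6 and 14.3 in silica 1, 2 and 7 and 16.5 and 20.9 in silica_DMSO 2 and 5, against 6.25 to 14.6 (median 7.82) without silica (1.12 ± 0.20, edgeR adjusted p = 0.0385). Birc5, which encodes survivin, gave 8.75, 7.12 and 8.26 and 6.95 and 27.4, against 1.81 to 13.9 (median 2.697) (1.43 ± 0.26, edgeR adjusted p = 0.0431). DMSO 4 overlapped in both. Aurkb, a kinase of chromosome segregation, rose by 1.46 ± 0.28 with no overlap. Which cells divided was not measured.

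Genes of fibrosis did not pass. Of 31 collagen and matrix genes 0 were called by edgeR, 8 were higher and 1 lower at an unadjusted p under 0.05, and the median was 0.36. Col3a1, a fibrillar collagen, had 688, 276 and 239 in silica 1, 2 and 7 and 333 and 431 in silica_DMSO 2 and 5, against 99.4 to 304 (median 203) in unexposed lungs (1.09 ± 0.33, edgeR adjusted p = 0.239). Col1a1, the main collagen of scars, had 289, 131 and 64.7 and 157 and 24.2, against 57 to 169 (median 77.5) (0.27 ± 0.33, edgeR adjusted p = 0.901), and silica_DMSO 5 was its lowest library. Fn1, which encodes fibronectin, had 886 in silica 1 and 148 to 297 in the other silica lungs, against 111 to 407 (median 156) (1.00 ± 0.36, edgeR adjusted p = 0.374). Acta2, smooth muscle actin, had -0.10 ± 0.35 and Tgfb1, the main profibrotic cytokine, 0.20 ± 0.13 (edgeR adjusted p = 0.975 and 0.771).

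**Figure D2:**
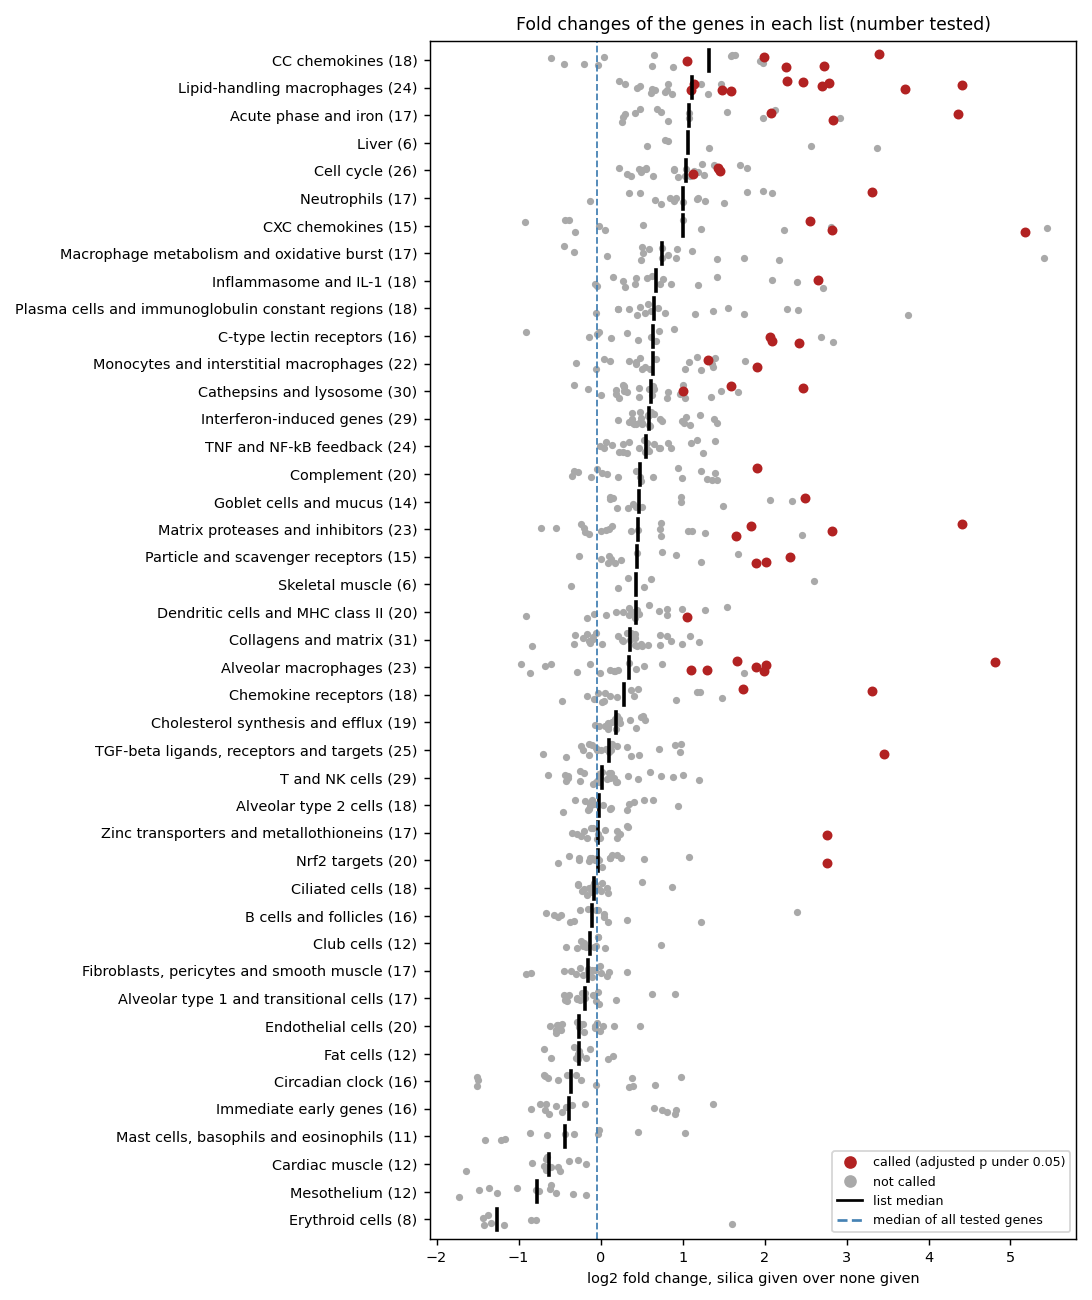
Log2 fold change, silica given over none given, of each tested gene (points) in 43 lists with at least 5 genes tested, called genes in red, list medians as black lines and the median of all tested genes, -0.039, as a dashed line. CC chemokines (median 1.32) and lipid-handling macrophages (1.12) stand at the top, mesothelium (-0.77) and erythroid cells (-1.26) at the bottom, with no called gene in the lowest lists.

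Markers of other lung cells stayed uncalled. Alveolar type 2 (18 genes, median -0.024), alveolar type 1 (17, -0.19), club (12, -0.13), ciliated (18, -0.079), endothelial (20, -0.26) and fibroblast and smooth muscle genes (17, -0.15) each had 0 called by edgeR. At an unadjusted p under 0.05 they held 4 and 1 higher genes in type 2 and type 1 cells, 0 in the other lists, and 1 lower gene, among fibroblasts and smooth muscle. The 12 mesothelial genes were all negative, with a median of -0.77, and 0 passed even at an unadjusted p under 0.05. The 2 arms of the study described below differed in sign for them, with a median of 0.90 in silica_DMSO over DMSO and -1.78 in silica over control, where 5 were called. Endothelial genes had medians of 0.54 and -0.85 in these arms, in the same order, and goblet cell genes -0.70 and 1.16. The difference between arms was not tested for lists, and gene by gene the interaction called 0 genes by edgeR, 19 by DESeq2 and 1704 at an unadjusted p under 0.05. Lymphocyte lists were uncalled as well: T and NK cells (29 genes, median 0.022), B cells (16, -0.11) and plasma cells (18, 0.66), with 3, 1 and 0 genes higher and 1, 0 and 0 lower at an unadjusted p under 0.05. Plasma cell genes differed between libraries more than between groups, with a median deviation from the unexposed mean of 1.88 in silica 1 and -0.82 in silica 2, against 2.62 in DMSO 4 and -1.30 in control 4.

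The lists left had few calls. Among 20 dendritic cell and MHC class II genes (median 0.43) Ccl22 was called, and among 20 complement genes (0.49) C3ar1. In macrophage metabolism and oxidative burst 0 of 17 were called by edgeR, though 13 were higher at an unadjusted p under 0.05 and the median was 0.75. Acod1, the enzyme that makes itaconate in activated macrophages, had 5.41 ± 1.11 there (edgeR adjusted p = 0.0768) and Arg1, an arginase, 2.17 ± 0.61 (edgeR adjusted p = 0.184), both named after their values were seen. Mast cell, basophil and eosinophil genes (11, median -0.44), immediate early genes (16, -0.38), clock genes (16, -0.36) and cholesterol genes (19, 0.19) had 0 called by edgeR, with 0, 3, 2 and 3 higher and 2, 2, 5 and 0 lower at an unadjusted p under 0.05. Genes of other tissues were also uncalled, with medians of -0.63 for heart muscle (12 genes), 0.43 for skeletal muscle (6), -0.26 for fat (12), 1.07 for liver (6), -1.26 for erythroid cells (8) and -0.041 for thymus (2), and 0, 1, 0, 3, 1 and 0 were higher at an unadjusted p under 0.05. Heart muscle, skeletal muscle and liver differed in sign between the arms. Their medians were 0.47, 1.11 and 1.81 in silica_DMSO over DMSO, against -1.44, -0.52 and -1.21 in silica over control. The sign also differed in further lists, not all given here. In the same order of arms, medians were -0.95 and 0.49 for B cells, -0.67 and 0.20 for ciliated cells, and -0.42 and 0.26 for thymus. They were -0.21 and 1.06 for chemokine receptors and 0.52 and -0.80 for immediate early genes.

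DMSO 4, given no silica, shared part of the pattern. Over the 79 genes that rose, the median deviation from the mean of the 7 unexposed lungs (log2 of normalised CPM + 1) was 1.60, 1.31 and 1.32 in silica 1, 2 and 7 and 1.14 and 1.85 in silica_DMSO 2 and 5, against 0.46 in DMSO 4, 0.21 in DMSO 1 and -0.21 to -0.091 in the other 5. These values chose the genes and are a description. By list, DMSO 4 stood at 1.62 for CC chemokines, 1.74 for acute-phase genes and 0.78 for lipid-handling macrophages, in the range of the silica lungs. It also held the second lowest share of long genes and the highest goblet cell value, 1.95, and the part of these in the overlap was not tested. Without DMSO 4, 263 genes were called in place of 80.

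**Figure D3:**
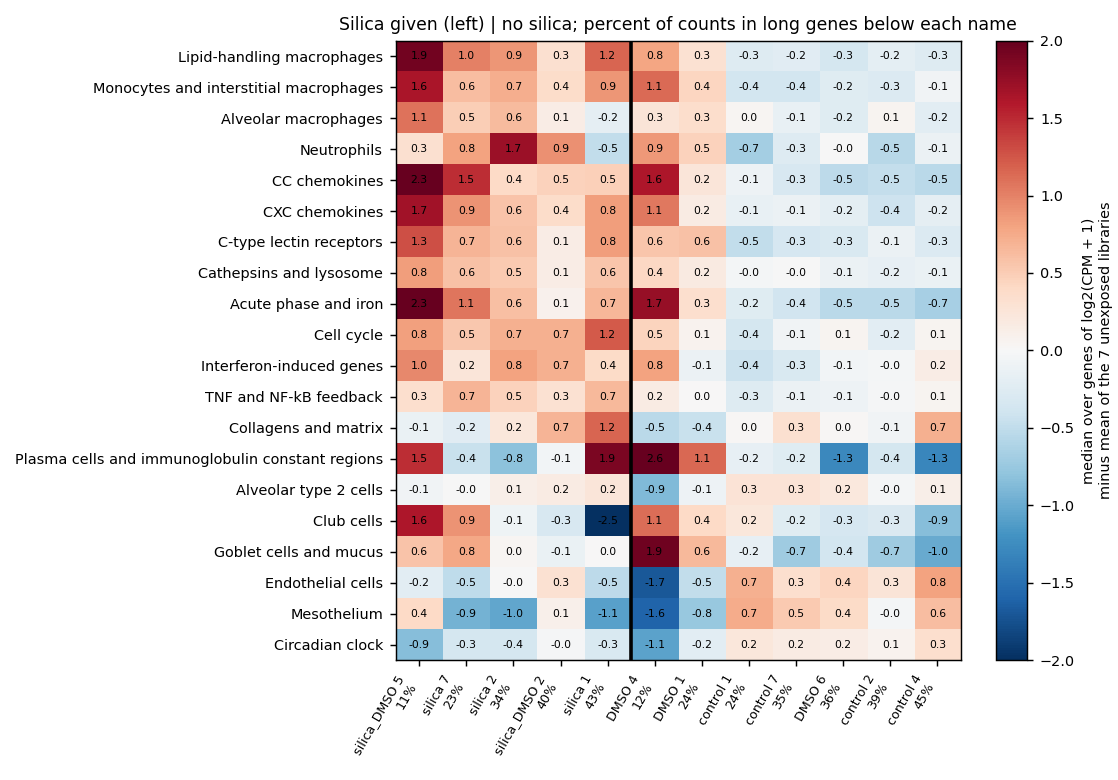
Median over the genes of each list of log2(normalised CPM + 1) minus the mean of the 7 unexposed libraries, in 5 silica libraries (left of the black line) and 7 unexposed ones (right), each side ordered by its percent of counts in long genes, which is printed under the name. Red is higher and blue lower. CC chemokines reach 2.26 in silica_DMSO 5 and 1.62 in DMSO 4, the libraries with the lowest shares.

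The silica difference was also measured in 2 arms that share no library, to see whether it held apart from DMSO. Silica against control (3 and 4 libraries) called 351 genes higher (2.13%) and 80 lower (0.486%) of 16467, and silica_DMSO against DMSO (2 and 3 libraries) called 0 of 16574, with 1036 at an unadjusted p under 0.05 (6.25%) and 123 by DESeq2. Of the 351, 350 were tested in the DMSO arm, where 288 (82.3%) were positive and 113 (32.3%) higher at an unadjusted p under 0.05. Over all 16093 genes tested in both arms those shares were 50.04% and 3.82%. The 80 lower genes did not carry over: 50 (62.5%) were positive in the DMSO arm, and 3 (3.75%, background 2.36%) were lower at an unadjusted p under 0.05. The median of the 350 was 1.58 with saline, the arm that chose them, and 0.57 with DMSO. The count of 0 did not hold without either silica library, with 3394 genes called without silica_DMSO 2 and 462 without silica_DMSO 5, each leaving 1 silica library that is assumed to vary like the DMSO group. The 431 calls of silica and control were 41 without the share of long genes in the fit, and 73 to 180 without control 2, 4 or 7 or silica 1 or 7.

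Fold changes of single genes lay side by side in the arms. Mmp12 had 3.89 ± 0.35 in silica_DMSO over DMSO and 4.94 ± 0.17 in silica over control, Marco 2.34 ± 0.22 and 1.92 ± 0.33, Mmp13 2.96 ± 0.38 and 2.36 ± 0.48, and Cxcr1 3.88 ± 0.66 and 2.95 ± 0.57. Gpnmb had 2.52 ± 0.27 with DMSO and 4.52 ± 0.36 with saline, Inhba 2.46 ± 0.35 and 4.10 ± 0.61, Saa3 3.64 ± 0.79 and 4.90 ± 0.50, and Cxcl3 3.73 ± 2.04 and 5.79 ± 0.96. Whether the silica difference depended on DMSO was tested by an interaction term in the 12 libraries. It called 0 of 17630 genes (edgeR, smallest adjusted p 0.489, 1704 or 9.67% at an unadjusted p under 0.05, 19 by DESeq2). Of the 79 genes that rose, 4 had an unadjusted interaction p under 0.05. Among the genes of smallest interaction p were the predicted genes Gm36423 and Gm13304. The DMSO term itself called 0 genes (270 at an unadjusted p under 0.05, 1.53%).

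**Figure D4:**
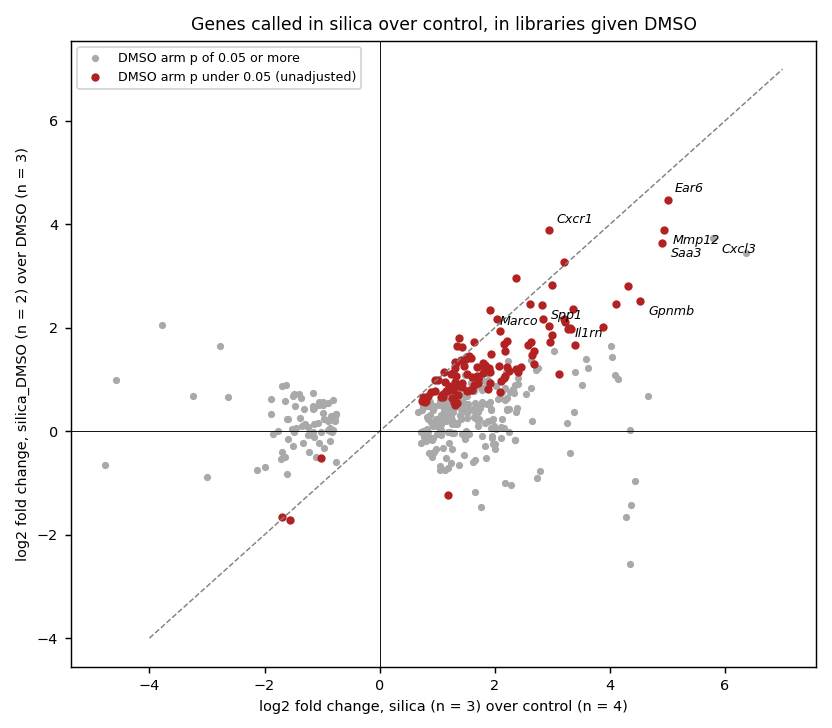
Genes called in silica over control (n = 3 and 4), with their log2 fold change there on the horizontal axis and their log2 fold change in silica_DMSO over DMSO (n = 2 and 3) on the vertical axis, and a dashed line of equal values. Red points have an unadjusted p under 0.05 in the DMSO arm. Most genes to the right lie above 0 (288 of 350), while those to the left scatter on both sides (50 of 80 above).

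Fitted alone, the 5 libraries with few counts in long genes called 0 genes by edgeR (245 of 17846 at an unadjusted p under 0.05), and the other 7 called 157. Of the 80 called genes, 78 could be tested in the 5 and 77 were positive there, with a median of 1.63, and 79 of 80 were positive in the other 7, with a median of 2.09. These libraries also gave the calls, so the signs are a description. Genes that rose were short, with a median of 1925 bases against 2653 over tested genes. Of the 80, 21 were called in each of 12 fits that left out 1 library, among them Mmp12, Ear6, Ctsk, Slc39a2, Itih4, Marco, Il1rn, Spp1, Ccr1, Mmp13 and Ccl2. With a demand that the fold exceed 2, 4 were called: Mmp12, Ear6, Ctsk and Slc39a2.

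Genes outside every list made up 32 of the 79. Some of them are named here, chosen after their values were seen. Tnfrsf26, a receptor of the TNF family, had 10.5, 7.32 and 7.11 in silica 1, 2 and 7 and 8.74 and 7.01 in silica_DMSO 2 and 5, against 2.51 to 4.01 (median 3.05) in unexposed lungs (1.37 ± 0.17, edgeR adjusted p = 0.00629). Zranb3, a DNA translocase of stalled replication forks, gave 15.6, 9.52 and 9.06 and 6.45 and 16.03, against 2.21 to 3.73 (median 2.77) (1.96 ± 0.26, edgeR adjusted p = 0.00807). Slc6a20a, a carrier of proline, gave 24.4, 15.8 and 15.4 and 15.6 and 15.7, against 3.805 to 8.32 (median 5.95) (1.57 ± 0.21, edgeR adjusted p = 0.00807). None of these overlapped between groups. Vnn1, a pantetheinase, rose by 1.50 ± 0.21, and Cd33, a lectin of myeloid cells, by 1.46 ± 0.20. Ptafr, the receptor for platelet-activating factor, rose by 1.68 ± 0.27, and Cd274, which encodes the checkpoint ligand PD-L1, by 1.26 ± 0.23.

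The 1 gene that fell was Xlr3b, of an X-linked lymphocyte-regulated family. It had 1.95, 0.852 and 2.903 in silica 1, 2 and 7 and 1.08 and 3.84 in silica_DMSO 2 and 5, against 3.05 to 10.6 (median 6.65) in unexposed lungs (-1.80 ± 0.34, edgeR adjusted p = 0.0459). Silica_DMSO 5 overlapped control 2, the lowest unexposed lung. The fold change of Xlr3b stayed negative in the 12 fits that left out 1 library, but it was called in only 1 of them. Near-identical copies, Xlr3a and Xlr3c, make its level uncertain.

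Per length, in the TPM values of the authors, which scale counts to gene length and library, Chil1, a chitinase-like protein, was the most abundant gene that rose, at 1279 ± 392 in silica lungs and 680.3 ± 199 in unexposed lungs (SD, n = 5 and 7). Ccl6 followed at 799 ± 214 and 209.9 ± 84.5, and Saa3 at 702 ± 433 and 51.8 ± 71.7. Spp1 stood at 346 ± 292 and 51.6 ± 27.8, and Mmp12, with the smallest p, lower at 118 ± 85.6 and 4.97 ± 2.79.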

How the data were processed

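RNA of mouse lung was sequenced in 15 libraries. The values used are deposited expected counts per gene, estimated by the authors, and deposited TPM per gene, which the authors computed. Also deposited are 8 columns of the authors' group means, which were left aside, and a length per gene, an other kind of value. Bowtie 0.12.2 and build mm8 stand in the submitters' processing notes, while the estimating program was not given in the sources used here. Per the labels, the RNA extraction text speaks of retinas and the tissue field of lung. The sources do not say that strand was used in counting, so overlapping antisense genes cannot be told apart.

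Counts were rounded (a total moved by at most 53.9) and filtered by label group with filterByExpr of edgeR (minimum count 10 and minimum total 15). Of 57010 genes 17630 passed. TMM scaling and edgeR's robust quasi-likelihood F test followed, with silica, DMSO and the percent of counts in genes over 3000 bases as terms and 8 residual degrees of freedom. P-values were adjusted over all tested genes by Benjamini and Hochberg. The biological coefficient of variation was 0.364, against 0.523 without the share. Tools were R 4.3.3, edgeR 4.0.16, limma 3.58.1, DESeq2 1.42.0, the package data.table (version 1.17.8), Python 3.11.15, pandas 2.3.3 and matplotlib 3.10.9, and the fit was tested on simulated data. Any 2 libraries of a group differed by more than sampling noise (chi-square per degree of freedom 34.2 or more).

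The libraries, the model, 44 gene lists and the rule for genes were chosen with earlier results of these data known. Named were up to 12 genes of highest and of lowest fold change among called genes of at least 1 CPM without overlap, up to 2 called genes of smallest p per list, 12 genes of fibrosis and inflammation, and the 3 genes of smallest interaction p. One gene that this rule names is not reported here. Lists are described by counts and medians, with no test. Alternatives were other covariates, scalings, tests, filters, thresholds and library sets, TPM with a pseudocount of 1 or 0.1, a length offset, a replicate block and leaving out each library. One set, without DMSO 4 and silica_DMSO 5, was chosen after seeing the data.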

Additional observations from a re-analysis of the deposited data

Results flagged for a closer look

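Of 84 groups (42 named genes, each in the 5 silica and the 7 unexposed libraries), 11 held a library far from the others by Dixon's criterion on log2(normalised CPM + 1). Chance flags about 1 in 20 groups. In silica lungs, Inhba stood at 67.1 normalised CPM in silica 1, against 10.03 in the next library, Birc5 at 27.4 in silica_DMSO 5, against 8.75, and Fcgr1 at 33.5 in silica_DMSO 5, against 16.6. In unexposed lungs DMSO 4 was the highest library for Ccl2 at 7.52, Ccl7 at 10.02, Saa3 at 193.2, Cxcl5 at 9.95 and Fcgr1 at 18.2, and the next libraries were at 1.66, 1.77, 21.0, 1.16 and 8.48. DMSO 4 was the lowest for Cxcr1, at 0.0783, against 0.265 in the next. Slc26a4 was highest in DMSO 1, at 5.49, against 2.52, and Fn1 in control 4, at 407, against 190.1.

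The 3 libraries left out for Rag1 held Mmp12 at 10.3 CPM in silica_DMSO 4, 4.07 in silica_DMSO 6 and 3.49 in DMSO 7. Unexposed lungs had 4.69 to 15.9 CPM of the library total, so silica_DMSO 4 lay within their range and silica_DMSO 6 and DMSO 7 just below it.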

How the results depend on the processing

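All 80 called genes kept their sign in every alternative where they were tested. Their number, 80, changed with the model: 18 without the share of long genes, 127 without the DMSO term, 29 with silica alone, 37 with the share as a class, 49 with a length offset, 421 with DESeq2, 900 with limma-voom and 52 with 1 CPM asked in 5 libraries. An adjusted p under 0.1 gave 213 and a fold minimum 4. All 15 libraries gave 0, the 5 libraries with few counts in long genes 0 and the other 7 157, as did leaving out DMSO 4 and silica_DMSO 5. With 1 library left out it was 23 to 263. For the interaction (0 called) DESeq2 gave 19 and leaving out 1 library 0 to 4, with 4 without silica_DMSO 2 and 2 without silica_DMSO 5. The 431 calls of silica against control became 41 without the share, 48 as a contrast of 4 groups, 1452 with DESeq2 and 73 to 515 with 1 library left out. The 0 of silica_DMSO against DMSO became 1 as such a contrast, 123 with DESeq2 and 0 to 3394 with 1 library left out. The cause was not tested. Acta2 changed sign, with -0.10 at first and 0.20 by limma-voom, 0.28 in the 5 libraries, 0.15 without DMSO 4 and silica_DMSO 5, 0.18 with the replicate block and -0.48 to 0.10 with 1 library left out (0.068, 0.084 and 0.10 without DMSO 4, silica 1 or silica_DMSO 5). Col1a1 (0.27) was -0.71 in the 5 libraries. Other named genes lost their call in 350 cases of gene and alternative and gained one in 10.

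Correlations of deviations ran from -0.457 to 0.386 in same-numbered libraries and from -0.636 to 0.636 in other pairs. Values of silica_DMSO 2 and silica_DMSO 5 were equal and opposite against every library, so the ends of the second range mirror each other. For model residuals the ranges were -0.347 to 0.273 and -0.69 to 0.574. With same-numbered pairs inside the range of the others, these values cannot tell whether the numbers pair samples. With the number as a replicate block 0 genes were called (1388 at an unadjusted p under 0.05), and the interaction 0, but 2001 in silica against control. That last fit had 4 residual degrees of freedom before the block, and the block left fewer. With so few, the 2001 calls cannot show whether the numbers pair samples. No paired analysis was possible for silica_DMSO against DMSO because these groups share no number. The 5 and 7 libraries, of uneven length make-up, limit the precision.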

Other observations

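Ccl3 and Cxcl3, chemokine genes of different families on different chromosomes, had almost the same count in several libraries: 883 and 882 in silica 7, 1173 and 1172 in silica_DMSO 2 and 122 and 120 in silica_DMSO 5. In silica 1 they had 212 and 249 and in silica 2 234 and 47. The reason was not tested, and the pair was noticed after the values were seen.

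Gm13304 had 279 counts in silica_DMSO 5 and 992 in control 1, and 0 in each of the other 10. Gm36423 had most of its counts in the same libraries.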
